A study of Mus musculus with 6 samples.

Results

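The response of TSA-treated macrophages to LPS was read from 2 of the 6 arrays of the study, TSA + LPS against TSA. All arrays held RNA of primary, thioglycollate-elicited macrophages, inflammatory cells that enter the peritoneal cavity after an injected irritant. The donors were 6-week-old C57BL/6 females. In the comparison described here both arrays came from cells given TSA (trichostatin A), an inhibitor of histone deacetylases, and the arrays differed by LPS (lipopolysaccharide), the outer-membrane component of Gram-negative bacteria. Set beside them are LPS against No treatment, which has no TSA and shares no array with them, and TSA + GW3965 + LPS against TSA, which reuses the TSA array. GW3965 activates the liver X receptors, which control cholesterol export, and the sixth group was GW3965 + LPS. Each group had 1 array, so a difference between 2 arrays carries no replicate error, and the labels give no dose, no time and no statement on pooled animals.

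LPS binds CD14 and the Toll-like receptor TLR4 with its partner MD-2 on the macrophage surface. The adaptors MyD88 and TRIF then activate the transcription factors NF-kB, AP-1 and IRF3. Their first targets are cytokines, chemokines, inhibitors of NF-kB itself and type I interferon, and interferon acts back on the cell to switch on a second set of antiviral genes. Histone deacetylases work inside corepressor complexes that hold many of these genes down at rest, and they also act on proteins other than histones.

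Of 8841 genes with a named probe, 4785 were measured in this pair, meaning that the brighter of the 2 arrays reached the median of all its probes. Values were floored at the 25th percentile of each array, 0.228 units for TSA and 0.245 for TSA + LPS, and a fold against a floored value is given as "at least". Higher and lower below mean a difference of 2-fold or more between the 2 arrays, which has no test. Rose and fell are kept for genes called by limma, a linear model fitted to 5080 genes on all 6 arrays with terms for LPS, TSA, GW3965 and the dependence of the LPS effect on TSA. Its call is a Benjamini-Hochberg adjusted p under 0.05, and the fit has 1 residual degree of freedom, so it rests on a spread shared by genes of like brightness. That degree is the dependence of the GW3965 effect on TSA, which the model leaves out. Rose and fell thus also draw on the arrays with GW3965.

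The cells carried macrophage genes on both arrays. The lysozyme gene Lyz2 read 729 with TSA and 1050 with TSA + LPS, and the scavenger receptor gene Msr1 read 36.2 and 114. Of 11 macrophage markers on the array 10 were measured, 5 of them higher with LPS. Several genes that define other cells were under the floor: the T cell gene Cd3e read 0.088 and 0.0756, the neutrophil gene Mpo 0.122 and 0.21, and the endothelial gene Pecam1 0.182 and 0.129. Other markers of such cells were measured: 6 of 13 for T cells, 5 of 10 for neutrophils, 2 of 6 for endothelium and 7 of 8 for B cells. Some markers moved with LPS. The summed signal of 10 neutrophil markers was 43.8 with TSA and 89.8 with TSA + LPS, most of it S100a8 at 31.8 and 78.8, and among 5 measured members S100a8 and Camp were higher and Ltf and Prtn3 lower. That of 8 NK cell markers was 27.8 and 61.4, with Gzma at 24.9 and 39.6 and Klrk1 at 1.1 and 19.7. The summed signal of 8 B cell markers was 22.5 and 33.6, and that of 13 T cell markers 53.1 and 42.1. The part of such cells in the results was not tested. In bulk RNA, fewer cells of a type and less RNA per cell cannot be told apart.

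LPS changed the macrophages strongly in the presence of TSA. Of 4785 measured genes 440 were higher (9.2%) and 305 lower (6.37%). By limma, 423 of 5080 rose (8.33%) and 164 fell (3.23%). The upward side held the large differences: 158 genes were at least 4-fold higher against 36 lower, and 54 were at least 10-fold higher against 1 lower. The median fold was 3.12 among the higher genes and 2.48 among the lower ones. Of the 440 higher genes 375 rose by limma, and of the 305 lower genes 158 fell. After quantile normalization limma found 388 risen and 265 fallen, so that 59.4% of its calls were rises in place of 72.1%, and when each array was floored at its median it called 16 genes, which had all risen.

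The genes that led the response were cytokines, chemokines and interferon-induced genes. Il1b, which encodes the fever-inducing cytokine interleukin-1 beta, read 0.28 with TSA, 475 with TSA + LPS and 576 with TSA + GW3965 + LPS, log2 differences of 10.73 and 11.01. The monocyte chemokine genes Ccl7 and Ccl2 read 1.61 and 6.63 with TSA and 214 and 547 with TSA + LPS. Ccl5, a chemokine for T cells and monocytes, read 8.38 and 1116. Both arrays with TSA and LPS stood far above the TSA array for each of these. Rsad2, an antiviral enzyme that makes a chain-terminating nucleotide, was under the floor with TSA and read 30.5 with TSA + LPS, at least 134-fold higher. Cxcl10 and Cxcl11, ligands of the receptor CXCR3, went from 0.369 to 52.4 and from 0.246 to 30.6. For these 2 genes the array of TSA + GW3965 + LPS read lower, 18.9 and 10.7. It was also lower for Ccl7, Ccl2 and Ccl5, at 119, 347 and 901, and higher for Il1b and Rsad2, at 576 and 32.1. The neutrophil chemokine gene Cxcl1 went from 1.82 to 180 and the interferon-induced RNA-binding genes Ifit1 and Ifit3 from 1.37 to 101 and from 1.69 to 119. Completing the 15 highest genes, Il1a, a cell-bound interleukin-1, read 1.16 and 71.5, Clec4e, a receptor for mycobacterial glycolipid, 2.34 and 138, and Fpr2, a receptor for formylated peptides, 1.86 and 104. Folds over resting readings near the floor depend on it: flooring each array at its median gave log2 differences of 8.91 for Il1b, 4.95 for Rsad2, 4.95 for Cxcl11, 5.73 for Cxcl10, 5.74 for Il6 and 4.73 for Tnf. It left those of the other 9 genes as they were.

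**Figure D1:**
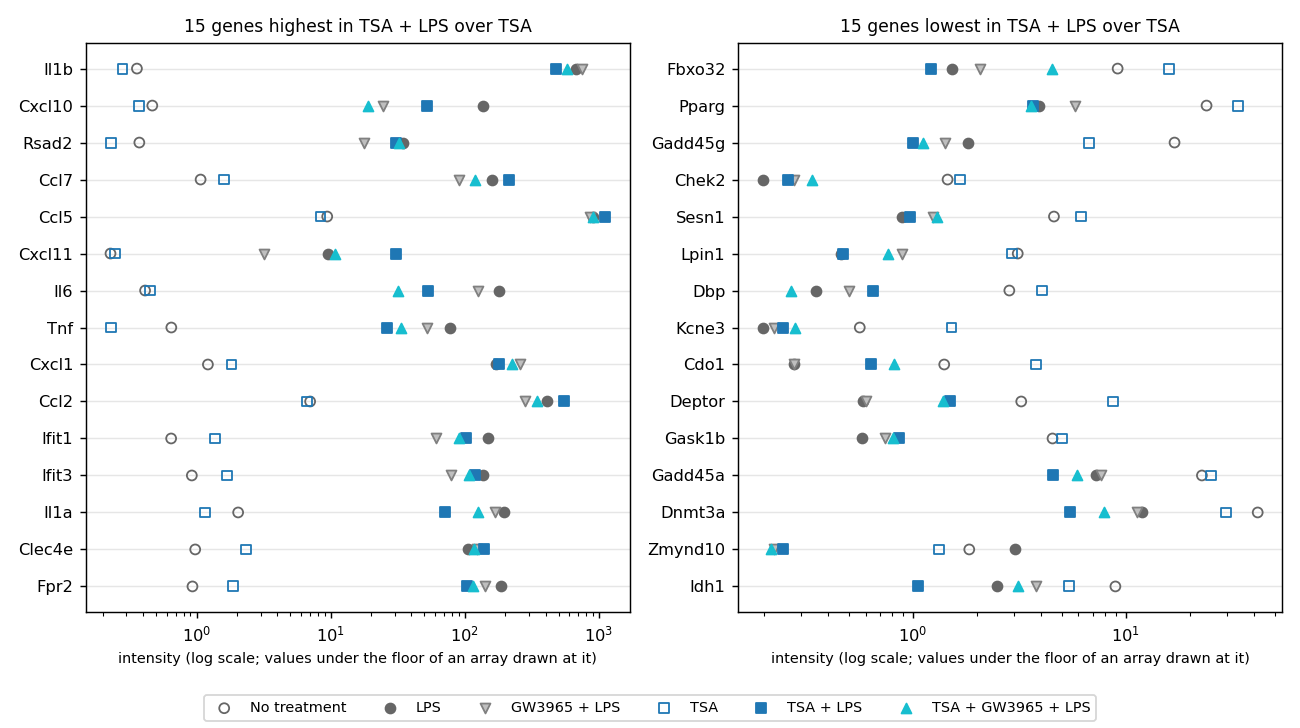
Intensity (log axis) on the 6 arrays of the 15 genes with the highest and the 15 with the lowest difference between TSA + LPS and TSA, 1 point per array and no error bars because each group has 1 array; values under an array's floor are drawn at the floor. For all 15 highest genes the 4 arrays with LPS lie to the right of both arrays without it, as in Il1b at 0.28 with TSA and 475 with TSA + LPS.

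Promoters of the highest genes are shown because the motifs of the factors named above can be read in them. Of the 15 highest genes 11 were in the RefSeq promoter table (build GRCm38.p6, 250 bases before to 50 after the first listed start), and 7 of these held at least 1 match. Both strands were searched for GGG and TTTCC with any 2 bases between (NF-kB type), GAAA and GAAA with any 2 bases between (interferon response element type) and TGANTCA (AP-1 type), and matches are in capitals. The 6 highest ranked of those with a match are printed, 5′ to 3′ on the gene's strand.
Cxcl10 promoter, chr5:92348840-92349139, minus strand: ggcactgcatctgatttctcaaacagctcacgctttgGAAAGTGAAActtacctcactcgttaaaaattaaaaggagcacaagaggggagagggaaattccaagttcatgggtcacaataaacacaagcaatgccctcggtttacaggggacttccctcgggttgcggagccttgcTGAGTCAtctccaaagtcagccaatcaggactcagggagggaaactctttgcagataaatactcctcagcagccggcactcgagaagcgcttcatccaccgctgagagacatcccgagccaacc
Rsad2 promoter, chr12:26456403-26456702, minus strand: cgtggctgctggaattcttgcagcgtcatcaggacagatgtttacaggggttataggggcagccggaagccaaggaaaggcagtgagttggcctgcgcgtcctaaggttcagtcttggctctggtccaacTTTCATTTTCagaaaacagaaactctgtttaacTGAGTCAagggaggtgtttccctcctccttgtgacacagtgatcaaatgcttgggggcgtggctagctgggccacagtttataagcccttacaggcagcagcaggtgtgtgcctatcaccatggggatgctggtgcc
Il6 promoter, chr5:30012864-30013163, plus strand: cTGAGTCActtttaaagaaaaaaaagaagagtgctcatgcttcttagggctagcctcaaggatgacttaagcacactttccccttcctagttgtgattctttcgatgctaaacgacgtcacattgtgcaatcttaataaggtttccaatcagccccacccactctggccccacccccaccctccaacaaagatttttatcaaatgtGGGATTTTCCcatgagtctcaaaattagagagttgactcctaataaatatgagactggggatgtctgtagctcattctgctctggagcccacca
Cxcl1 promoter, chr5:90890995-90891294, plus strand: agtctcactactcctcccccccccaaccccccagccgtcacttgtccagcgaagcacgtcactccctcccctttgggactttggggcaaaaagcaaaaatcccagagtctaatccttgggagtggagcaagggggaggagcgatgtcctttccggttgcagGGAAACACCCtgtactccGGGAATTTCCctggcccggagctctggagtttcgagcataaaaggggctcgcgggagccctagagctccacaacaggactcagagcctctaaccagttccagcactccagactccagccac
Ifit1 promoter, chr19:34640639-34640938, plus strand: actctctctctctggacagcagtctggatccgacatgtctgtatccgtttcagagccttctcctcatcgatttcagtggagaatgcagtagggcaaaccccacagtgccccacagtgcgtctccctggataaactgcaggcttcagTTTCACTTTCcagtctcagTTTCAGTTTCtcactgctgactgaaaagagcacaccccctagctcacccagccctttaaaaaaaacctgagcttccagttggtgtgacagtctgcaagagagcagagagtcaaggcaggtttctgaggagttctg
Ifit3 promoter, chr19:34583279-34583578, plus strand: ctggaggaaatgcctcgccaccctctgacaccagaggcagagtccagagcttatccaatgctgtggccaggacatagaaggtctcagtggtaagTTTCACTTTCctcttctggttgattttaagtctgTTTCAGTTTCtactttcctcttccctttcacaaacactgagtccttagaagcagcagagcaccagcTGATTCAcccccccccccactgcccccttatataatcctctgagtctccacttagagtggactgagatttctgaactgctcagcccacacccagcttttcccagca
In this window Cxcl1 held 2 NF-kB type matches that start 89 and 71 bases before the first base of the transcript, and Il6 held 1 that starts 44 bases before it. Ifit1 and Ifit3 each held 2 interferon response element type matches, and Cxcl10 and Rsad2 1 each. An AP-1 type match was in Cxcl10, Rsad2, Il6 and Ifit3. The seventh gene with a match, Il1a, held 1 AP-1 type match, and Il1b, Tnf, Clec4e and Fpr2 held none in these 300 bases.

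The interferon type of match was found in 42 of 344 promoters of higher genes (12.2%), against 9 of 254 of lower genes (3.54%), 142 of 3913 of measured genes (3.63%) and 943 of all 27025 promoters in the table (3.49%). Among interferon-stimulated genes of the list used below it was in 16 of 34 (47.1%). It was in 4 (36.4%) of the 11 genes in the promoter table from among the 15 highest. The NF-kB type was in 12 of 344 promoters of higher genes (3.49%), 3 of 254 of lower genes (1.18%), 60 of 3913 of measured genes (1.53%) and 438 of all 27025 (1.62%). It was in 2 of those 11 genes (18.2%). The AP-1 type was in 36 of 344 (10.5%), 16 of 254 (6.3%), 237 of 3913 (6.06%) and 2144 of 27025 (7.93%). Of those 11 genes 5 held it (45.5%). A match describes letters in this window and is not a binding site, and these shares were not tested.

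Among genes that sense LPS and carry its signal, several receptors were higher and the LPS receptor itself was not. Of 19 measured genes of this list 10 were higher (52.6%, against 9.2% of all measured genes) and 0 lower. The median log2 difference was 1.09 against 0.03 over all measured genes. With no filter on level these medians were 0.54 and 0.10. By limma 9 of 21 rose and 0 fell. Tlr2, a receptor for bacterial lipopeptides, read 7.96 with TSA and 141 with TSA + LPS, 17.7-fold higher. Cd14, the surface protein that hands LPS on, read 21.6 and 174, 8.05-fold higher. The partners of Tlr2, namely Tlr1 and Tlr6, were 4.13-fold and 2.72-fold higher, and the receptor for double-stranded RNA, Tlr3, was 2.92-fold higher from 0.639 to 1.87. Of the signalling proteins, the ubiquitin ligase gene Peli1 was 4-fold higher, the kinase genes Ikbke and Tbk1 3.4-fold and 2.14-fold, and the adaptor gene Myd88 2.39-fold. Tlr4 read 1.55 with TSA and 0.858 with TSA + LPS, a log2 difference of -0.85 that is less than 2-fold, and Irak1 read 5.18 and 3.29. Both of these did not pass.

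NF-kB genes answered in part. The list holds subunits, which bind DNA, and inhibitors, which hold the subunits in the cytoplasm or end the signal, and 12 of its genes were on the array. Of 8 measured genes 5 were higher (62.5%, against 9.2% of all measured genes) and 0 lower. Their median was 1.98, and by limma 5 of 8 rose and 0 fell. A gene counts as measured through its brighter array alone: the median was 0.70 over all 12 genes and 1.12 where both arrays had to reach their medians. Nfkbia, which encodes the inhibitor IkB-alpha, read 10.9 with TSA, 191 with TSA + LPS and a log2 difference of 4.13. A second inhibitor gene, Nfkbib, went from 8.68 to 29.7, a difference of 1.78. Among subunits, Nfkb2, the precursor of p52, went from 0.612 to 5.96 and Rel, the subunit c-Rel, from 0.385 to 2, log2 differences of 3.28 and 2.38. Tnip1, which binds the deubiquitinase A20, went from 0.836 to 3.78. The other 3 measured genes differed by less than 2-fold: Relb read 0.788 and 1.21, the deubiquitinase gene Cyld 10.7 and 14.6, and Tnfaip3, the gene of A20, 2.24 and 2.59. Rela, Nfkbie, Nfkbiz and N4bp1 were not measured in this pair.

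AP-1 and immediate early genes, which many stimuli switch on within minutes and which then fade, were higher in a minority of members. Of 15 measured genes 5 were higher (33.3%, against 9.2% of all measured genes). Only 1 was lower (6.67%), near the 6.37% of all measured genes. By limma 5 of 17 rose and 1 fell. Batf, a partner of Jun proteins, read 4.08 with TSA and 19.5 with TSA + LPS, 4.77-fold higher. Junb and Jund, subunits of AP-1, were 3.78-fold and 2.98-fold higher, and the zinc finger factor genes Klf6 and Klf2 2.71-fold and 2.22-fold. Jun itself read 10.4 and 2.54, 4.12-fold lower, and fell. Without TSA the log2 difference was 0.80 for Junb, 0.91 for Jund, 0.82 for Klf6 and -0.01 for Klf2, against 1.92, 1.58, 1.44 and 1.15 with it. By the test of the difference itself these 4 did not pass, with limma adjusted p between 0.52 and 1 for Klf2 and the others.

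Of the cytokines and growth factors, most measured members were higher. Counts were 16 higher (69.6%, against 9.2% of all measured genes) and 0 lower of 23. Their median was 1.97, and by limma 17 of 25 rose and 0 fell. The median was 1.55 with no filter on level and 1.22 where both arrays had to reach their medians. Il6, which drives the acute phase response, read 0.447 with TSA, 52.9 with TSA + LPS and 31.5 with TSA + GW3965 + LPS. Tnf, the early macrophage cytokine, was under the floor with TSA and read 26.1 and 33.6 on those 2 arrays with LPS, at least 114-fold higher in the first. Il12a, a subunit of interleukin-12, went from 0.525 to 20.2 and Il15, a growth factor of NK cells and memory T cells, from 5.28 to 46.5. Il18, whose product activates interferon gamma production, went from 27.5 to 214. The interleukin-1 receptor antagonist gene Il1rn, which blocks interleukin-1, read 1.93 and 25.7, 13.3-fold higher, and Inhba, a subunit of activin A, 0.357 and 3.31. Their log2 differences were 3.73 and 3.21 with TSA and 2.51 and 2.21 without it. Edn1, the vasoconstrictor endothelin-1, had the reverse order, with 3.55 and 5.90. For Il1rn, Inhba and Edn1 the test of the difference between the pairs did not pass, with limma adjusted p of 0.095, 1 and 0.1. Tgfb1, which encodes a cytokine that damps inflammation, read 5.84 with TSA and 14.3 with TSA + LPS and rose by limma, but read 7.41 with TSA + GW3965 + LPS. It read 14.6 with No treatment and 15.9 with LPS, and the difference between the pairs did not pass (limma adjusted p = 1). Csf3, Mif and Ereg differed by less than 2-fold.

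Chemokine genes were higher in 15 of 21 measured members (71.4%, against 9.2% of all measured genes), with 0 lower. Their median was 2.79, or 1.65 with no filter on level, and by limma 15 of 23 rose and 0 fell. Besides the 6 chemokines already named, Ccl3 and Ccl4, which encode macrophage inflammatory proteins, read 24.9 and 9.21 with TSA and 595 and 63.8 with TSA + LPS. Cxcl9, the third ligand of CXCR3, went from 2.24 to 36.5, and Ccl12, a CCR2 ligand, from 0.709 to 7.96. Ccl17, a ligand of CCR4 that is typical of alternative activation, was under the floor with TSA and read 3.35 with LPS, at least 14.7-fold higher. Its partner ligand Ccl22 read 3.04 and 4.5 and did not pass. Ccl9 and Cxcl16 were 5.88-fold and 5.84-fold higher. Ccl6 read 465 and 644, Pf4 16 and 24.7 and Cxcl13 9.38 and 11.4, all within 2-fold.

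Nearly all interferon-stimulated genes answered: 36 of 40 measured members were higher and 0 lower, a share of 90% against 9.2% of all measured genes. The median log2 difference was 2.57, and 38 of 42 rose by limma and 0 fell. Antiviral effectors led, with Mx1 from 0.469 to 26.2, Mx2 from 0.611 to 22.1 and the nuclease gene Isg20 from 2.28 to 34.7. The ubiquitin-like Isg15 went from 0.293 to 4.26, 14.6-fold higher. Among the sensors of foreign RNA, Ifih1, the gene of MDA5, read 16.8 and 261, and Dhx58 0.242 and 1.02. Interferon-inducible GTPases were high as well: Ifi47 read 115 and 827, Tgtp1 69.3 and 400, Gbp3 7.66 and 48, Igtp 2.33 and 14.2 and Iigp1 2.82 and 13.1. Of the transcription factors that carry the interferon signal, Irf7 went from 31.3 to 241, Irf1 from 40.2 to 158 and Stat2 from 0.475 to 2.45. Irf9 and Irf8 read 1.95 and 1.34 with TSA and 3.02 and 1.87 with LPS and did not pass. The 4 measured members under 2-fold were Lgals3bp, Sp100, Irf9 and Irf8. Eif2ak2 and Parp14 were not measured in this pair but rose in the fit over 6 arrays.

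**Figure D2:**
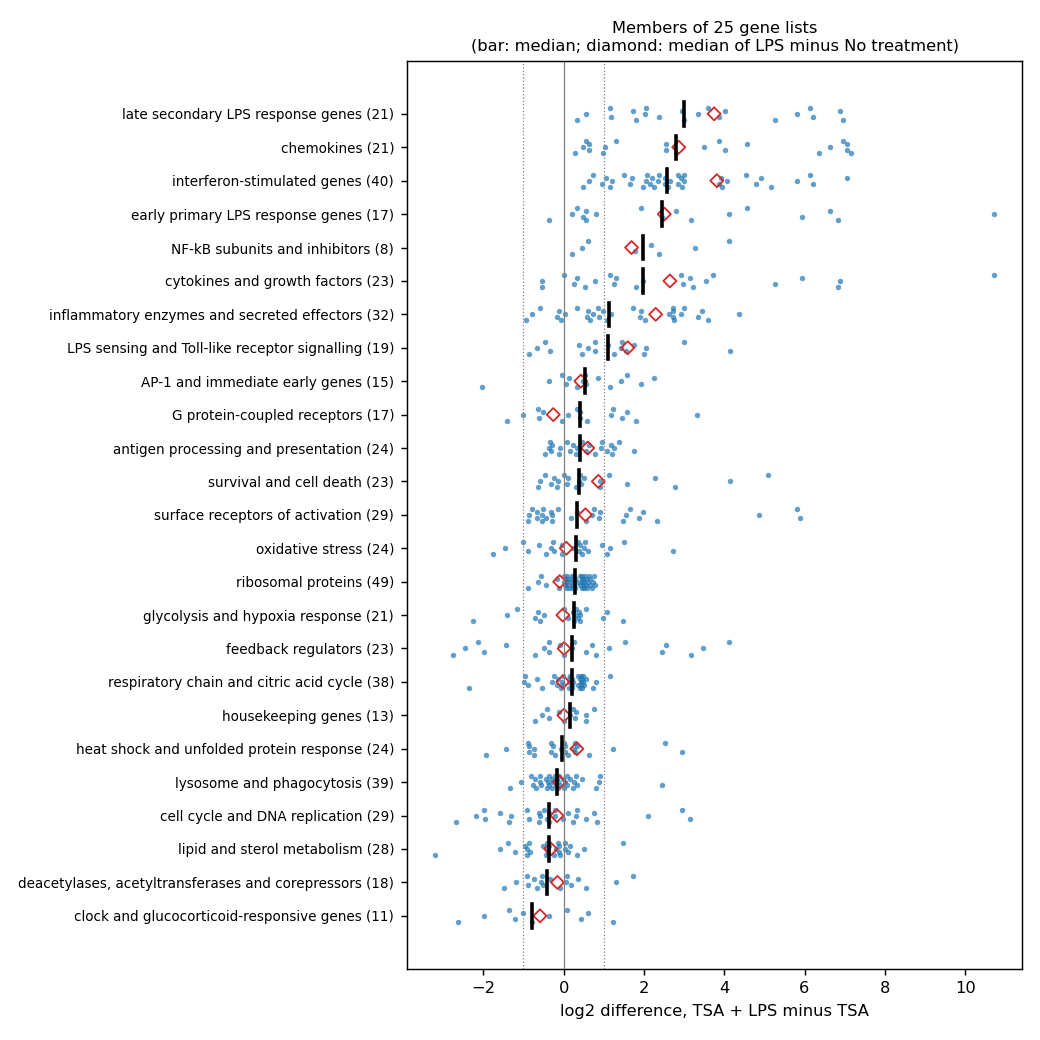
Log2 difference between TSA + LPS and TSA (horizontal axis) for the measured members of 25 gene lists, 1 point per gene, with the list's median as a bar and the median of LPS against No treatment as an open diamond; list sizes are in brackets and dotted lines mark 2-fold. The upper lists, such as chemokines with a median of 2.79, lie to the right of the 2-fold line, while ribosomal proteins, with a median of 0.28, stay between the lines.

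Regulators that limit the response split into 2 groups. Of 23 measured genes 7 were higher (30.4%, against 9.2% of all measured genes) and 5 lower (21.7%, against 6.37%). By limma 8 of 24 rose and 5 fell, against 8.33% and 3.23% of all 5080 genes. Socs1 and Socs3, inhibitors of cytokine receptor signalling, read 0.573 and 0.711 with TSA and 6.32 and 6.46 with TSA + LPS. Dusp4, a phosphatase of MAP kinases, was 5.88-fold higher and Gadd45b, a stress protein under NF-kB control, 5.48-fold. Socs2 and the phosphatase gene Ptpn2 were 2.87-fold and 2.18-fold higher. The lower genes included both relatives of Gadd45b: Gadd45g read 6.72 and 1, and Gadd45a 25 and 4.55, 6.71-fold and 5.5-fold lower. Sigirr, an inhibitor of interleukin-1 and Toll-like receptor signalling, read 6.9 and 1.57, 4.4-fold lower. Tsc22d3, a mediator of glucocorticoid action, read 90.5 and 22.9, and Rgs2, a brake on G protein signalling, 152 and 55.7. The mRNA-destabilizing Zfp36 rose, from 4.97 to 8.7, by less than 2-fold, and Dusp1 read 1.58 and 2.33 and did not pass.

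Secreted effectors and inflammatory enzymes were higher in 17 of 32 measured genes (53.1%, against 9.2% of all measured genes) and lower in 0. Their median was 1.13, and by limma 20 of 34 rose and 0 fell. Serpinb2, an inhibitor of plasminogen activators, read 2.51 with TSA and 51.7 with TSA + LPS, 20.6-fold higher. The matrix proteases Mmp13 and Mmp14 were 12-fold and 7.6-fold higher and the protease inhibitor Timp1 7.98-fold. Ptges, which makes prostaglandin E2, went from 0.784 to 8.01, and Ch25h, which makes 25-hydroxycholesterol, was at least 11-fold higher. Gch1, which makes the cofactor of nitric oxide synthases, went from 21.4 to 132. Nos2, the inducible nitric oxide synthase, read 2.18 and 4.98, 2.28-fold higher, and did not pass. The inducible cyclooxygenase gene Ptgs2 read 0.315 and 0.905, below the median of the array, so it was not measured in this pair, although it rose in the fit over 6 arrays. The coagulation factor gene F10 read 56.3 and 377, the complement gene Cfb 2.32 and 15.4, and the acute phase gene Saa3 211 and 695.

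Receptors at the cell surface changed selectively. Of 29 measured surface receptors 9 were higher (31%, against 9.2% of all measured genes) and 0 lower (against 6.37%). By limma 11 of 31 rose and 0 fell. Cd40, the receptor through which T cells activate macrophages, read 2.38 with TSA and 69.8 with TSA + LPS, and the costimulatory ligand gene Cd86 9.15 and 45.6. Cd274, the checkpoint ligand PD-L1, was 3.65-fold higher, Il15ra 3.97-fold, Msr1 3.15-fold and the lectin gene Clec4d 2.95-fold. The beta-glucan receptor gene Clec7a read 54.6 and 29.3, Itgam 3.17 and 1.74 and the Fc receptor gene Fcgr3 135 and 84.5, all lower by less than 2-fold, and these did not pass. Among 17 measured G protein-coupled receptors 6 were higher (35.3%) and 2 lower (11.8%), and by limma 6 of 18 rose and 1 fell. Ccrl2, an atypical chemokine receptor, read 19.8 and 197, the UDP-glucose receptor gene P2ry14 26.5 and 92.1, the ADP receptor gene P2ry13 1.03 and 3.05 and the complement receptor gene C5ar1 2.2 and 5.02. The cannabinoid receptor gene Cnr2 read 1.4 and 0.53 and the prostaglandin receptor gene Ptger2, which did not pass, 3.93 and 1.94.

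Antigen presentation and survival genes were higher in a minority of members, but in a larger share than over all measured genes. Of 24 measured antigen presentation genes 6 were higher (25%, against 9.2% of all measured genes) and 0 lower (against 6.37%). By limma 7 of 25 rose and 0 fell, against 8.33% and 3.23% of all 5080 genes. Psmb10, a subunit of the immunoproteasome, read 56.2 with TSA and 188 with TSA + LPS, and the peptide transporter genes Tap1 and Tap2 were 2.4-fold and 2.3-fold higher. Of 23 measured genes of survival and cell death 6 were higher (26.1%) and 0 lower, and 7 of 25 rose and 0 fell. Traf1, an adaptor of TNF receptors, read 5.26 and 179, and Cflar, an inhibitor of death receptor signalling, 1.98 and 35.2. The death receptor gene Fas read 5.73 and 27.5, the inhibitor gene Birc3 3.79 and 11.3, and the inflammatory caspase genes Casp4 and Casp1 21.6 and 147 and 99.1 and 216. Inhibitors and executors of cell death were thus both among the higher genes.

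Of measured genes of lipid metabolism and of glycolysis 14.3% each were lower, against 6.37% of all measured genes and 2.63% of the respiratory list. Higher were 3.57%, 9.52% and 2.63% of the lipid, glycolysis and respiratory lists, against 9.2% of all. Pparg, a lipid-sensing nuclear receptor of the macrophage, read 33.8 with TSA, 3.66 with TSA + LPS and 3.61 with TSA + GW3965 + LPS, 9.24-fold lower in the first. Of 28 measured genes of lipid and sterol metabolism 1 was higher and 4 lower, and 0 of 30 rose and 4 fell, namely Pparg, its target gene Fabp4, the lipase gene Mgll and the cholesterol exporter gene Abcg1. Fabp4 read 472 and 180 and Mgll 1.64 and 0.547. Abcg1 read 13.2 with TSA and 5.66 with TSA + LPS, but its log2 difference was 1.22 in place of -1.22 when the stimulated array was the one with GW3965. Of 21 measured genes of glycolysis and the hypoxia response 2 were higher and 3 lower, and 3 of 21 rose and 2 fell by limma: the hypoxia factor gene Hif1a read 11.1 and 23.4 and its ubiquitin ligase gene Vhl 3.58 and 10, and Pfkm, Ldhb and Aldoc were 4.78-fold, 2.64-fold and 2.23-fold lower. In the list of respiratory chain and citric acid cycle genes 1 of 38 measured genes was higher, the cytochrome c gene Cycs. Lower was 1, Idh1, and these were the 1 that rose and the 1 that fell. Idh1 encodes a cytosolic isocitrate dehydrogenase, which is on the list but outside both pathways. It read 5.41 with TSA, 1.06 with TSA + LPS and 3.13 with TSA + GW3965 + LPS, log2 differences of -2.35 and -0.79.

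Among the 15 lowest genes were Pparg and the regulators Gadd45g and Gadd45a given above. Fbxo32, a ubiquitin ligase known from muscle atrophy, read 15.9 with TSA and 1.21 with TSA + LPS, 13.1-fold lower, and 4.5 on the array with GW3965. Deptor, an inhibitor of mTOR, read 8.71 and 1.49, Sesn1, a stress protein that restrains mTOR, 6.17 and 0.974, and Lpin1, a phosphatidate phosphatase, 2.92 and 0.468. Dnmt3a, a DNA methyltransferase, read 29.7 and 5.5. Cdo1, which oxidizes cysteine, read 3.8 and 0.639, and Gask1b 5.04 and 0.866. Dbp, a transcription factor of the circadian clock, read 4.04 and 0.648. The checkpoint kinase gene Chek2 and the potassium channel subunit gene Kcne3 read 1.67 and 1.52 with TSA and 0.26 and 0.236 with TSA + LPS, the latter under the floor. All 15, which include Idh1 and Zmynd10, fell by limma. Floored at each array's median, Chek2, Kcne3 and Zmynd10 were less than 2-fold lower, at log2 differences of -0.76, -0.63 and -0.43.

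Of 11 measured clock and glucocorticoid-responsive genes 5 were lower and 1 higher, a share of 45.5% lower against 6.37% of all measured genes, and by limma 4 of 11 fell and 1 rose. Besides Dbp and Tsc22d3, Txnip, an inhibitor of thioredoxin, read 21.4 and 8.37, and Klf9 29.4 and 12.7, while the kinase gene Sgk1 read 14.9 and 34.9. Of 29 measured cell cycle genes 7 were lower (24.1%) and 3 higher (10.3%, against 9.2% of all measured genes), and 5 of 29 fell and 3 rose. The replication genes Mcm3, Mcm4 and Mcm5 read 5.93, 3.26 and 1.05 with TSA and 1.32, 1.32 and 0.407 with TSA + LPS, and Cdc6, which loads them onto DNA, 1.2 and 0.307. Mcm3 and Cdc6 fell, and Mcm4 and Mcm5 did not pass. Higher were the cell cycle inhibitor gene Cdkn1a, from 0.689 to 6.06, the cyclin gene Ccnd2, from 0.324 to 2.49, and the proliferation marker Mki67, from 4.41 to 18.8.

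Of 24 measured genes of heat shock and the unfolded protein response 3 were higher (12.5%) and 2 lower (8.33%), with a median of -0.04, and 2 of 26 rose and 2 fell. The heat shock genes Hspa1a and Hspa1b, near-identical copies whose probes may read each other's RNA, read 2.37 and 5.46 with TSA and 18.2 and 31.2 with TSA + LPS. The 2 lower members were the kinase gene Eif2ak3, from 5.34 to 1.41, and Ddit3, a transcription factor of endoplasmic reticulum stress, from 17 to 6.26. In the oxidative stress list 4 of 24 measured genes were higher (16.7%) and 3 lower (12.5%). The mitochondrial superoxide dismutase gene Sod2 read 18.7 and 123, and the glutathione synthesis gene Gclc 2.5 and 0.744. Of 18 measured deacetylases, acetyltransferases and corepressors 2 were higher and 2 lower, 11.1% each way, near the 9.2% and 6.37% of all measured genes. Sap30, a subunit of the Sin3 deacetylase complex, read 27.5 and 90.9 and the acetyl-histone reader gene Brd2 2.86 and 7.07, while Hdac5 read 5.46 and 1.95 and the corepressor subunit gene Gps2, which did not pass, 1.19 and 0.526. Ribosomal protein genes moved by less than 2-fold in all 49 measured members, with a median of 0.28 that became -0.16 after quantile normalization and -0.09 after cyclic loess. Housekeeping genes did likewise in 13 of 13, with a median of 0.15 that became -0.20 and -0.09. Quantile normalization moved the median over all measured genes from 0.03 to -0.08.

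The response with TSA was then set beside the response without it, pairs of arrays that have no array in common. Without TSA 669 of 4790 genes were higher (14%) and 290 lower (6.05%), and by limma 572 of 5080 rose (11.3%) and 244 fell (4.8%). Higher in both pairs were 337 genes, 76.6% of those higher with TSA and 50.4% of those higher without it. Lower in both were 139 genes, 45.6% and 47.9%. No gene was higher in one pair and lower in the other. Across 4530 genes measured in both pairs, which are not independent replicates, Pearson's r was 0.81 and Spearman's rho 0.57. Genes higher with TSA had a median log2 difference of 1.64 there and 2.01 without TSA. Of 103 genes that were higher with TSA and not counted as higher without, 87 also had a positive difference without it.

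**Figure D3:**
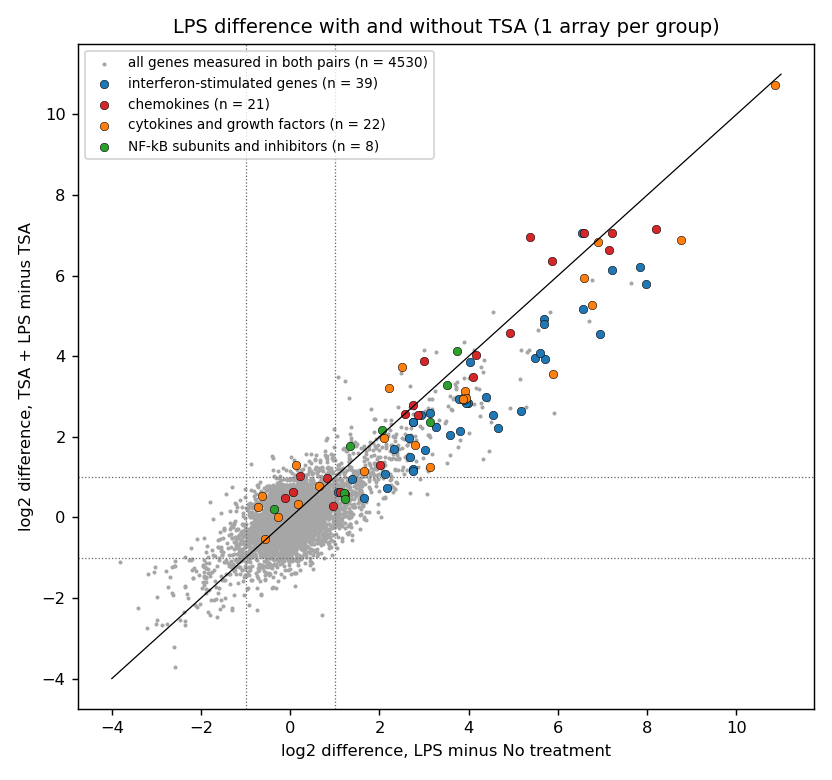
Log2 difference between LPS and No treatment (horizontal axis) against that between TSA + LPS and TSA (vertical axis) for 4530 genes measured in both pairs, 1 point per gene, with 4 gene lists coloured, the line of equal response and dotted lines at 2-fold. Most interferon-stimulated genes lie below the line of equal response, while Il1b lies near it at 10.87 and 10.73.

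Interferon-stimulated genes had smaller LPS differences with TSA than without it in 40 of 42 members measured in either pair, by a median of 1.15 on the log2 scale (the difference of the responses was -1.15). The same held for 597 of 772 genes higher in either pair (77.3%) and 2745 of 5045 genes measured in either (54.4%), with medians of -0.67 and -0.07. Both ends of the response entered. With TSA 30 of the 42 read higher than with No treatment, and with TSA + LPS 37 of the 42 read lower than with LPS. The medians of the 42 were 0.53 and -0.73, against 0.04 and -0.0005 over all genes measured in either pair. Ifit2, for example, read 0.729 with TSA and 17.1 with TSA + LPS, a log2 difference of 4.55, against 6.94 without TSA, and the difference between the pairs did not pass (limma adjusted p = 0.16). For chemokines 14 of 23 responses were smaller with TSA, with a median difference of -0.16, and 12 of 23 read higher in TSA + LPS than in LPS. NF-kB genes had smaller responses with TSA in 4 of 8. Early primary response genes, those induced without new protein synthesis, had medians of 2.45 with TSA, or 1.21 with no filter on level, and 2.51 without TSA, and late secondary response genes 2.99 and 3.75. Where both arrays had to reach their medians, the medians with TSA were 1.63 for early primary and 2.03 for late secondary genes.

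For single genes the difference between the responses was tested in the same limma fit. Of 5080 genes 2 had a larger value with TSA (0.0394%) and 10 a smaller one (0.197%), at an adjusted p under 0.05. The lowest term was that of Ptx3, which encodes a secreted opsonin of microbes and read 0.203 with No treatment and 9.14 with LPS, but 0.166 with TSA and 0.681 with TSA + LPS (LPS:TSA term -3.40, adjusted p = 0.000159). Vcan, the matrix proteoglycan versican, read 0.354 and 21.2 without TSA and 2.46 and 14.8 with it (adjusted p = 9e-05). The lysophosphatidic acid receptor gene Lpar1 read 0.221 and 4.58 without TSA and 0.857 and 2.34 with it, and the pantetheinase gene Vnn3 0.662 and 25.8 against 0.752 and 4.99. Arhgef2, an activator of RhoA, read 0.158 and 2.56 without TSA and 0.127 and 0.314 with it, and Tma16, a ribosome biogenesis factor, 3.18 and 20.3 against 3.57 and 5.41. For Il6 the pairs were 0.413 and 180 against 0.447 and 52.9, for Mki67 1.65 and 26.7 against 4.41 and 18.8. The GTPase genes Gbp3 and Tgtp1 read 3.73 and 135, and 13.6 and 314, without TSA, and 7.66 and 48, and 69.3 and 400, with it. The resting readings of Ptx3 and Arhgef2 were under the floor with and without TSA, and that of Lpar1 without it. Vcan, Lpar1, Mki67, Gbp3 and Tgtp1 started from a higher reading with TSA. In the other direction, Susd3 read 8.9 and 0.636 without it and 14.7 and 6.87 with it, and the lamin gene Lmna 7.16 and 2.82, and 2.67 and 3. Both read less with LPS than with No treatment, and for Lmna the TSA arrays with and without LPS were close. None of the 12 passed when arrays were floored at their medians, nor with the spread of a fit that has no LPS:TSA term, an alternative chosen after seeing the data.

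**Figure D4:**
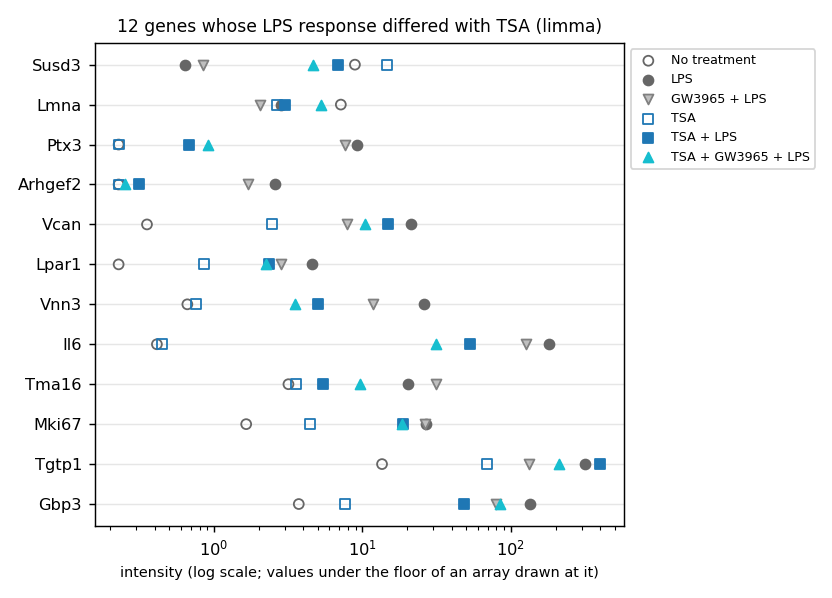
Intensity (log axis) on the 6 arrays of the 12 genes whose LPS response differed with TSA by limma, 1 point per array and no error bars; values under an array's floor are drawn at the floor. For Ptx3 and Arhgef2 the TSA + LPS array reads 0.681 and 0.314 while the LPS array reads 9.14 and 2.56.

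Other genes differed between the pairs without passing this test. Cebpb, a transcription factor of inflammatory genes, read 5.07 with TSA and 53.3 with TSA + LPS, a log2 difference of 3.39 against 1.23 without TSA, and did not pass the test of the difference (limma adjusted p = 0.053). Hamp, which encodes the iron hormone hepcidin, read 0.517 and 5.8, 11.2-fold higher, against a log2 difference of 1.08 without TSA, and did not pass either (limma adjusted p = 0.12). Some differences rest on 1 array. The uncharacterized gene 1700008O03Rik read 0.345 with TSA and 5.25 with TSA + LPS but -0.00778 with TSA + GW3965 + LPS. Parp14, an antiviral ADP-ribosyltransferase, was under the floor with TSA and with TSA + LPS at 0.0477 and 0.0878, but read 6.71 with TSA + GW3965 + LPS and 7.84 with LPS. Eif2ak2, the RNA-activated kinase PKR, read 0.512 with TSA + LPS, 1.57 with TSA + GW3965 + LPS and 3.43 with LPS. Zmynd10 read 3.03 with LPS and was under the floor on the other 3 arrays with LPS, so only the LPS array stood apart.

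On the array of TSA + GW3965 + LPS, 468 of 4746 genes were higher than with TSA (9.86%) and 189 lower (3.98%). Of the 440 genes higher with TSA + LPS, 437 had a positive difference there and 338 were at least 2-fold apart in that direction. Of the 305 lower genes 297 had a negative difference and 147 were at least 2-fold apart. Some genes named above as risen or fallen by 2-fold or more had log2 differences under 2-fold there. They included Nfkbib (0.91), Vhl (0.81), Ddit3 (-0.37), Ldhb (-0.73), Txnip (-0.67), Tgfb1 and Idh1. For Abcg1 (1.22) and 1700008O03Rik (-0.67) the difference had the opposite sign there. These counts share the TSA array and include the effect of GW3965.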

How the data were processed

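Gene expression was measured on 6 single-colour arrays, 1 per group. The authors deposited intensity values on a linear scale, with array medians of 0.981 to 0.987 and 19 to 28 values at or below 0 per array. Per the labels' protocols, 0.5 ug of total RNA was primed with oligo-dT, amplified and labelled with biotin. The scanner, background correction and scaling are not given in the sources used here.

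Of 10076 probes 8983 carried 1 gene symbol, 1 several and 1092 none; these stand for 8841 genes, 138 of which had several probes and took the one brightest on average. Of 47 genes with at least 2 measured probes, the probes of 36 differed by less than 2-fold. Each array was floored at its 25th percentile and log2-transformed. The model was fitted with limma 3.58.1 in R 4.3.3 with an intensity trend. The prior degrees of freedom came out infinite, so adjusted p-values take each gene's spread from genes of like level. That spread comes from how far the GW3965 effect depended on TSA on these arrays. It does not measure replicate error, because no group has a replicate. The labels do not state separate cultures or animals. The fit was tested on 10 simulated sets.

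The comparison, 25 gene lists and 10 marker lists (1056 symbols, 795 on the array), thresholds and motifs were chosen with earlier results of these data known. Named genes are the 15 highest and 15 lowest, the 10 largest differences of the responses each way, genes passing the LPS:TSA term, NF-kB genes, and up to 6 members per list farthest from 0. Other members named for comparison were chosen after their values were seen. Alternatives changed scaling, flooring, filtering, probe averaging, the fold, the stimulated array and the fit. Figures were drawn with matplotlib 3.10.9. Having 1 array per group limits the precision.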

Additional observations from a re-analysis of the deposited data

Results flagged for a closer look

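The limma term for the dependence of the LPS response on TSA passed for 12 genes, and this difference between pairs is why they are listed. In log2 units it was 2.22 for Susd3 and 2.15 for Lmna, and -3.40 for Ptx3, -2.90 for Arhgef2, -2.85 for Vcan, -2.57 for Lpar1, -2.25 for Vnn3, -1.997 for Il6, -1.97 for Tma16, -1.93 for Mki67, -1.84 for Tgtp1 and -1.75 for Gbp3.

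Probes with no gene symbol, which no comparison above used, also carried signal. Of 553 measured in TSA + LPS against TSA, 55 were at least 2-fold higher and 42 lower, with the highest at 29.6-fold.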

How the results depend on the processing

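The count of 745 genes apart by 2-fold became 1715 at 1.5-fold and 308 at 3-fold, and lay between 513 and 922 under the other 8 alternatives. The 587 limma calls became 16 on flooring arrays at their medians, where the prior degrees of freedom fell to 2.44, with 832 genes at an unadjusted p under 0.05. The additive fit, which averages the LPS effect over cells with and without TSA, gave 987. The 12 calls for the difference became 0 with the floor at the median (264 genes at an unadjusted p under 0.05) and 0 with the spread of the additive fit (164 genes). Without the intensity trend there were 8, which held 6 of the 12. Of 25 lists 8 had a median of 1 or more, and 5 without the level filter. Among 170 named genes, the difference changed sign for 1700008O03Rik (-0.67), Abcg1 (1.22) and Psca (-0.0875) with TSA + GW3965 + LPS as the stimulated array. The cause was not tested. With the floor at the median Eif2ak2 and Ptx3 both gave -0.0067. Both genes read under the median on the TSA and TSA + LPS arrays. That value is therefore the log2 ratio of the 2 floors and shows no change of direction in these genes. No paired analysis was possible because each group has 1 array and the labels carry no replicate numbers. Readings near the floor limit the size of folds.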
